A study of Caenorhabditis elegans with 2 samples.

Results

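The 274 peaks described here are places enriched with a GFP-tagged F23B12.7 that lay upstream of a single protein-coding gene of Caenorhabditis elegans, more than 200 and at most 500 bp ahead of its annotated start. They were taken from 1684 nuclear peaks, and from 1707 peaks in all, that passed the authors' filter on the irreproducible discovery rate (IDR). A peak was a member when its summit lay within 500 bp of exactly 1 coding gene start and more than 200 bp upstream of it in the direction of transcription. No tRNA, snoRNA or snRNA gene was allowed within 250 bp. The members were thus selected on measured values, namely the peak calls and the summit positions, and each of the 274 peaks belonged to a different gene. Of the other nuclear peaks, 284 lay 0 to 200 bp upstream of a single coding start and are called close peaks. A further 56 lay downstream of a single start, 323 had more than 1 start in reach, 373 lay near an RNA gene and 374 had no coding start in reach.

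Chromatin immunoprecipitation with an anti-GFP antibody was followed by sequencing (ChIP-seq) in whole young adult hermaphrodites. The strain was OP429, with the genotype unc-119(tm4063) III; wgIs429, in which a stably expressed transgene carries F23B12.7 with a GFP and FLAG tag at its C-terminal end. Both biological replicates came from this strain, so there was 1 group and no condition was compared. The promoter that drives the fusion is not given in the sources used here, and a peak from whole animals does not tell in which cells it arose.

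A gene's core promoter and nearby upstream DNA hold the sequences at which transcription factors bind and RNA polymerase II starts. In this worm the first part of many primary transcripts is cut off and replaced by a short spliced leader (trans-splicing), so that the annotated 5′ end is often the splice site and transcription can begin further upstream. Distances here are to the annotated start and are therefore not distances to the site of initiation. Ribosomal proteins, which recur below, are the protein parts of the cytosolic ribosome, the machine that translates messenger RNA.

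The bases within 50 bp of the summit are shown for the 10 members of highest signal on chromosomes II to V and X, since these peaks anchor the values below. For the same chromosomes, 4 more are shown as the strongest members with CTGCGTCT (phb-2), CCAAT (rpl-23), CACGTG (F21D5.7) and GAGAGA (sec-61.G), the fixed motifs discussed below. Each is written 5′ to 3′ on the strand of its gene, from the RefSeq genome of WBcel235, which is the same build as ce11. Capitals mark, on either strand, the motif CTGCGTCT and the 5 sequences of 6 bases (6-mers) with the smallest p-values in the test described below. By p-value, ACGCGC is the first of these and GACGCA is the second. They are followed by GAGCGC, then by CGAGAC, and lastly by AGTGCG. This marked set was picked after the values were seen.
rpl-3, chrIII:3867549-3867649, plus strand: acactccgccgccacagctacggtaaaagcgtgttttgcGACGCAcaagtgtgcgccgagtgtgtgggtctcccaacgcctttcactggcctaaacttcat
rpl-35, chrIII:7854636-7854736, plus strand: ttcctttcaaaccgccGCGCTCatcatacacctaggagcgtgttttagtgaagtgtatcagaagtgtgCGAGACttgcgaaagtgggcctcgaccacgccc
cox-5A, chrIII:12905152-12905252, plus strand: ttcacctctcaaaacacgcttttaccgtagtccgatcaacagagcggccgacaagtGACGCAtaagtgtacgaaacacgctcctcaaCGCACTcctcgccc
wip-1, chrIII:5018283-5018383, plus strand: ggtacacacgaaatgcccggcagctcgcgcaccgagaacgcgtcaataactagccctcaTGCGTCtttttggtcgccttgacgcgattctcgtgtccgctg
vig-1, chrII:1320568-1320668, plus strand: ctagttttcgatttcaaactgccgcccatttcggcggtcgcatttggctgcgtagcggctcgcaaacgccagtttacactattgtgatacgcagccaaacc
rps-28, chrIV:1659202-1659302, plus strand: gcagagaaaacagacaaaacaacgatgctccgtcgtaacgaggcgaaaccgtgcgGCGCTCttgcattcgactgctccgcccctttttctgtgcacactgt
knl-3, chrV:1868722-1868822, plus strand: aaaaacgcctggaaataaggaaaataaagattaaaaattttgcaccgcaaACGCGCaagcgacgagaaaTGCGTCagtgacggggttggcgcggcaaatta
icd-1, chrII:6588973-6589073, minus strand: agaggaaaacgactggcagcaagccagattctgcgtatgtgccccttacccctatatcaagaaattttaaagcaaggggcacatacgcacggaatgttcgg
rps-1, chrIII:4475625-4475725, plus strand: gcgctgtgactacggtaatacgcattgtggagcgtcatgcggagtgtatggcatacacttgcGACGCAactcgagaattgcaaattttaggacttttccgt
W08E12.7, chrIV:3294702-3294802, plus strand: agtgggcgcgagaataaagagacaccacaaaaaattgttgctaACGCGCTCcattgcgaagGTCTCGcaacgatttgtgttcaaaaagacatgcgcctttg
phb-2, chrII:6250952-6251052, plus strand: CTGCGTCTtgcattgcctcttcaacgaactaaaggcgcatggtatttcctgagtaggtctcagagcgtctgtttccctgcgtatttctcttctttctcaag
rpl-23, chrIII:5706423-5706523, minus strand: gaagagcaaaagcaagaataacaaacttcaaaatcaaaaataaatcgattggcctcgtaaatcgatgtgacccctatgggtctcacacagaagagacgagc
F21D5.7, chrIV:8744048-8744148, minus strand: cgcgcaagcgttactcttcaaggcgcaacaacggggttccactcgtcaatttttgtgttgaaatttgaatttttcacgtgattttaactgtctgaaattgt
sec-61.G, chrV:10897318-10897418, minus strand: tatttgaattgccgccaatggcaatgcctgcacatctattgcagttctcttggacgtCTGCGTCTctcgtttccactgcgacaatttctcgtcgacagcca
Capitals appear in 10 of the 14 windows. The windows of vig-1, icd-1, rpl-23 and F21D5.7 hold none of the marked sequences. In the window of W08E12.7, 3 of the marked 6-mers occur, and ACGCGC and GAGCGC overlap there in 1 run of capitals. The phb-2 and sec-61.G windows both hold CTGCGTCT, which contains the reverse complement of GACGCA.

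The members' summits were spread over the whole band and were most frequent at its near side. The median position was −296.5 bp (95% interval −314 to −285, quartiles −364 and −246), and the extremes were −497 and −202 bp. Counted in steps of 50 bp towards the upstream side, the band held 72, 67, 57, 31, 28 and 19 single-gene peaks. The 50 bp just outside the near edge held 102, so the counts fell step by step across that edge and it marks no gap in the distribution. These positions chose the members and are given as a description.

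**Figure D1:**
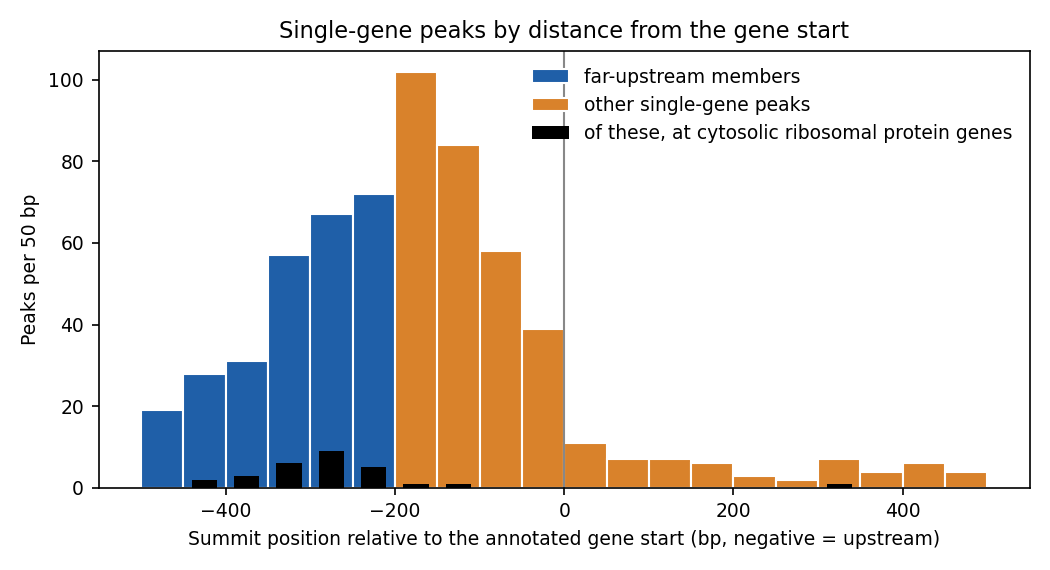
Number of single-gene peaks per 50 bp of distance between summit and annotated gene start, with negative values upstream. Blue bars are the far-upstream members, orange bars the other single-gene peaks, and black bars those at cytosolic ribosomal protein genes. The tallest bar, 102 peaks, lies just outside the near edge of the members, and 25 of the 28 ribosomal protein peaks lie among the members.

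At the near edge, the last members inside were atg-9 and F35D11.4, both at −202 bp, and rpl-18 at −203 bp. Just outside were bag-1, F13G3.10 and rps-2, all at −200 bp. At the upstream edge, F21C10.10 at −497, eri-5 at −496 and T21B10.3 at −492 bp were the last inside. The first outside were a second peak of rps-24 at −502 bp, tag-340 at −503 bp and C32D5.11 at −506 bp. Signals overlapped across the near edge. They were 42.9, 45.8 and 66.3 for the members at the near edge, against 99.6, 70.4 and 43.7 for the peaks outside it.

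The signal of a peak is the authors' deposited value, and its scale can differ from list to list. The members had a median signal of 51.3 in the IDR list (95% interval 49.3 to 53.0, quartiles 43.8 and 68.4, range 38.15 to 310), where the median of all nuclear peaks was 52.2. Their median percentile among the nuclear peaks was 48.1 (43.6 to 52), against 47.2 (41.0 to 51.5) for the close peaks. Of the members, 128 lay above the nuclear median, and the strongest stood far above it.

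The strongest nuclear peak of the series was a member. It belonged to rpl-3, a gene for a large-subunit ribosomal protein, lay at −255 bp (chrIII:3867463-3867728, ce11) and had a signal of 310 in the pooled reads, 195 in replicate 1 and 115 in replicate 2. The replicates placed its summit at −254 and −276 bp and ranked it 13 and 15 among their 30000 regions. The peak of rpl-35, another large-subunit gene, lay at −448 bp with a signal of 222, and with 139 and 84.2 in the replicates, at ranks 21 and 23. Both replicates placed it in the far part of the band, at −451 and −440 bp. The nearest coding gene upstream of rpl-35, ZK652.8, points the other way and lies 11497 bp off.

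The peak of cox-5A, which encodes a subunit of cytochrome c oxidase in the mitochondrial respiratory chain, had a signal of 156 at −289 bp, with 100.9 in replicate 1 and 56.0 in replicate 2. At rps-28, a small-subunit gene, it was 140 at −439 bp, with 80.8 and 62.0 in the replicates. At rps-1, also of the small subunit, it was 120 at −243 bp, with 74.1 and 48.0. Replicate 2 had the lower signal at every one of these genes, on its own scale. Its median over all members was also lower, 21.1 against 32.2 in replicate 1, so this is not particular to these genes. Both replicates ranked all of them within their first 100.

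The other 10 of the 15 strongest members were at genes of varied function. The peak of wip-1, whose product is a WH2 domain protein by RefSeq, had a signal of 149.6 at −306 bp. The peak of vig-1, which encodes a predicted mRNA-binding protein, had 144 at −419 bp, and that of the kinetochore gene knl-3 had 125 at −441 bp. The summit of knl-3 lay where the neighbouring gene T10B5.3 overlaps the start.

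Both subunits of the nascent polypeptide-associated complex, which binds new proteins as they leave the ribosome, were represented. Its beta subunit gene icd-1 had a peak of 120.4 at −368 bp, and its alpha subunit gene icd-2 had one of 115 at −325 bp. Replicate 1 placed these summits at −362 and −328 bp, and replicate 2 at −367 and −324 bp, so both replicates were within 6 bp of the pooled summit. The respiratory gene F36A2.7 (116, −308 bp), the peptidase-domain gene W08E12.7 (115, −383 bp), the mitochondrial prohibitin gene phb-2 (112, −409 bp), utp-20 (112, −214 bp) and F13H8.2 (111, −332 bp) completed the 15. By RefSeq, F13H8.2 carries a domain of the processome that builds the small ribosomal subunit, and utp-20 is a ribosome assembly gene of the lists used here.

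**Figure D2:**
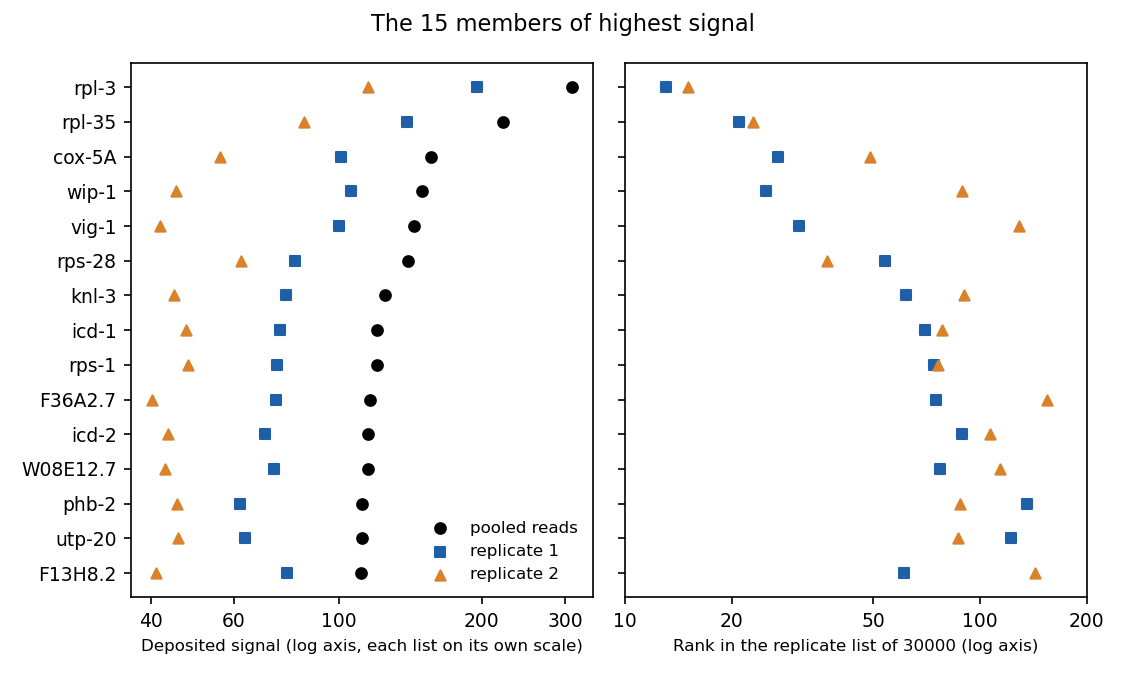
Deposited signal (left, log axis, each list on its own scale) and rank in the replicate lists (right, log axis, 1 is strongest) of the 15 members of highest signal. Replicate 1 signal exceeds replicate 2 signal in every row, and the replicate ranks run between 13 and 155.

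All 274 members overlapped a region in both replicate lists by at least 1 bp. Those lists run on into background regions, and the IDR peaks were derived from both replicates, so this overlap is no independent support. Passing the IDR filter did not by itself ensure such an overlap. Of the close peaks, 2 overlapped no region of the replicate 2 list, and 1 peak downstream of a start overlapped none of replicate 1. The summit within each replicate fell in the members' band for 258 members in replicate 1 and 243 in replicate 2, and in both replicates for 229 (83.6%, exact 95% interval 78.6 to 87.8%). The pooled summits that chose the members came from both replicates, and a replicate region had to overlap the peak. Agreement on position is thus partly set by the rule and the matching. The replicate summits were a median of 40 bp apart (35 to 44), and 174 pairs lay within 50 bp. For the close peaks the median was 36.0 bp (31.0 to 42.0).

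Some members near the edges had a replicate summit outside the band. At rpl-18 the summit was just inside the near edge in replicate 1 and at −1 bp in replicate 2, which is outside the band. At atg-9 it was at −202 and −165 bp, and at F21C10.10 at −444 and −620 bp. At eif-1.A, which encodes a translation initiation factor, both replicates and the pooled reads gave −369 bp.

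Strength in single replicates also varied. Of the members, 165 were among the 1707 strongest regions of both replicate lists (60.2%, 54.2 to 66.1%), 69 of replicate 1 only, 35 of replicate 2 only and 5 of neither. The close peaks had 148 of 284 in both (52.1%, 46.1 to 58.0%). The 5 members in neither were ZK829.7, F54C9.9, daz-1, gld-1 and acl-5, named here after their values were seen, and their pooled signals were 42.1 or less. The widest gap was at snr-6, a gene of the Sm core of splicing particles, which ranked 331 in replicate 1 and 27401 in replicate 2, with signals of 46.7 and 3.70. The lowest replicate 1 signal of any member, 7.5, was at the nuclear hormone receptor gene nhr-17, which had 20.3 in replicate 2.

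**Figure D3:**
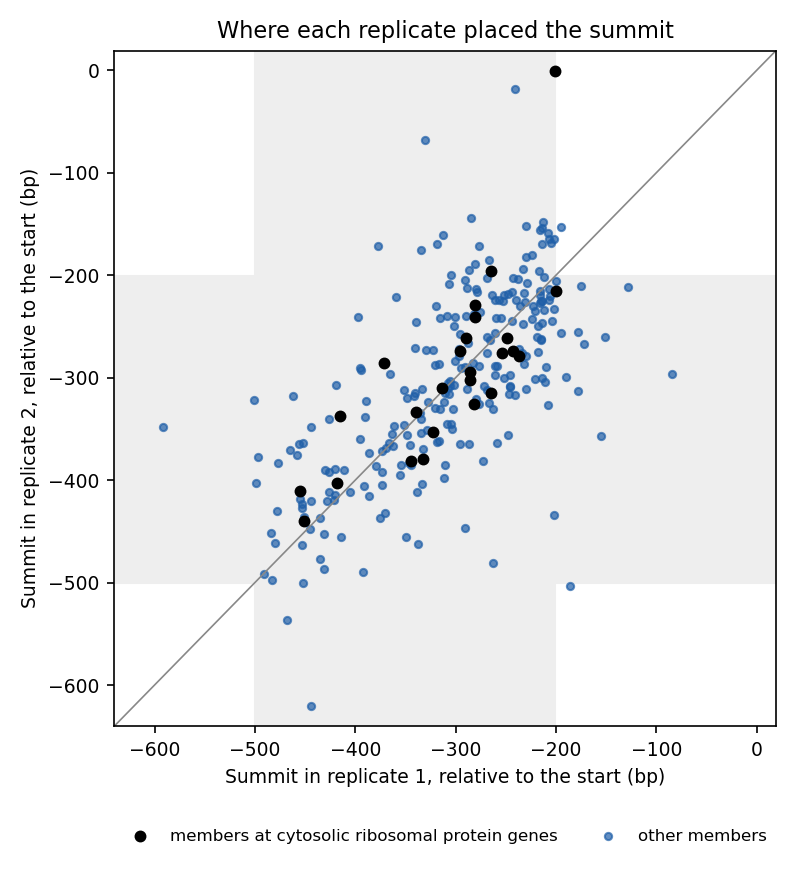
Summit position in replicate 1 (horizontal) and replicate 2 (vertical) relative to the annotated start for the 274 members, in bp, with the far band shaded on each axis and the line of equal position in grey. Black points are members at cytosolic ribosomal protein genes, and 229 members lie where both shaded bands cross.

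Cytosolic ribosomal protein genes held the largest group of members among the 18 gene lists used. Of their 82 genes, 25 had a far-upstream single-gene peak (30.5%, 20.8 to 41.6%) and 2 a close one (2.44%, upper limit 8.53%). Over all 19973 protein-coding genes the shares were 1.37% and 1.42%. The large subunit had 14 members of 50 genes and the small subunit 11 of 32. Their summits had a median of −287 bp, from −448 bp at rpl-35 to −203 bp at rpl-18. With the near edge 50 bp further from the start, 20 were far-upstream and 7 close. The 2 close ones were rpl-24.2 at −111 bp and rps-2 at −200 bp, the second on the edge itself. Since the lists and the band were chosen with results of these data known, these counts are descriptions and no test was made on them.

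The ribosomal protein members were also strong. Their median signal was 79.5 (66.4 to 98.6, range 40.7 to 310), against 50 (48.6 to 51.9, highest 156) for all other members. Of the 25, 22 (88%) lay above the median of all nuclear peaks, against 106 (42.6%) of the other members. Both replicate summits fell in the band for 22 of the 25. Beyond the 4 already named in full, rpl-13 had 100.9 at −260 bp, rpl-7 had 99.5 at −281 bp, rpl-23 had 99.3 at −346 bp and rpl-41.2 had 98.6 at −250 bp. In the small subunit, rps-4 had 92.9 at −264 bp and rps-21 had 88.7 at −336 bp. At the low end, rla-0, which encodes the stalk protein of the large subunit, had 40.7 at −282 bp. In replicate 1 rpl-7 ranked 162 and in replicate 2 it ranked 256, and rpl-23 ranked 310 and 58.

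Peaks that the membership rule left out held further ribosomal protein genes. At peaks with more than 1 coding start in reach there were 36 of them, and the summit lay in the far band ahead of the ribosomal protein start in 32 and 0 to 200 bp upstream in 4, with a median of −275.5 bp. Over all 656 genes at such peaks, the summit lay in the far band for 316 and 0 to 200 bp upstream for 308, with a median of −193.5 bp. Each such peak was counted once for every gene in its reach, so its genes share it.

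Other parts of the translation machinery had fewer members. Of 44 translation factor genes, 7 were members and 4 had close peaks. The initiation factor 3 subunits eif-3.C, eif-3.B and eif-3.G had signals of 107, 59.5 and 51.1 at −251, −239 and −316 bp. The other 4 were eif-1.A (58.5), the helicase gene inf-1 (52.3), the cap-binding factor gene ife-2 (40.7) and tufm-1 (58.5), which encodes the mitochondrial elongation factor Tu. No aminoacyl-tRNA synthetase gene of 32 was a member (upper limit 10.9%), or 1 without replicate 1, and 1 had a close peak. That limit lies above the 1.37% of all protein-coding genes. Of 70 mitochondrial ribosomal protein genes, 3 were members, mrps-31 (46.0 at −257 bp), mrpl-32 (41.7 at −451 bp) and mrpl-11 (39.2 at −205 bp), and 3 had close peaks. Without replicate 1 there was 1 such member, and without replicate 2 also 1. Ribosome assembly had 2 members of 33 genes, utp-20 and nucl-1 (50 at −220 bp).

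Among the lists of the respiratory chain, the nuclear pore and the spliceosome, each had 5 members. The respiratory members were cox-5A, cyc-1 (55.6 at −300 bp), asb-2 (54.6), cox-4 (47.7) and nduf-9 (46.4), of 52 genes, and 5 more genes had close peaks. F36A2.7 and the ATP synthase gene F58F12.1 (104 at −239 bp) are respiratory by their RefSeq products but fall outside the list, which goes by gene name. The nuclear transport members were the importin genes imb-3 (77.9), ima-3 (70.3) and ima-2 (47.4) and the nuclear pore genes npp-13 (66.3) and npp-2 (38.2), of 40 genes. The spliceosome members, of 60 genes, were led by prp-8, whose product lies at the catalytic centre of the spliceosome, with 75 at −321 bp, followed by lsm-5 (51.6), snr-6 (48.6), the helicase gene mog-4 (43.9) and snrp-3 (38.5). Of these 5, 3 had both replicate summits in the band.

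Of 78 germline and eggshell genes, 7 were members and 3 had close peaks. They included cpg-1 (72.0 at −258 bp) and cpg-2 (59.7 at −277 bp), which encode chondroitin proteoglycans of the eggshell, as well as perm-1 (47.2), the Pumilio gene puf-9 (80.7) and gld-1 (38.5), an RNA-binding regulator of the germ line. The replicates ranked cpg-1 at 232 and 1568, and cpg-2 at 1273 and 293, so neither replicate was the stronger at both. The remaining lists had 1 to 3 members each. The chaperone members were the J-domain genes dnj-9 (97.1 at −210 bp) and dnj-13 (86.4 at −282 bp), of 67 genes, and the proteasome members were rpt-6 (49.3) and pas-6 (45.5), of 33. For RNA polymerase II with Mediator they were taf-4 (53.8) and rpb-5 (40.2), of 51 genes, and for actin, tubulin and muscle the actin genes act-5 (47.4) and act-2 (43.0), of 45. The vacuolar ATPase had vha-12 (51.8), of 20 genes, and the nuclear hormone receptors had nhr-49 (65.4), nhr-17 (41.4) and nhr-35 (38.9), of 274. For the receptors this is 1.09%, near the 1.37% of all protein-coding genes.

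Counts this small moved when a single library was left out. Without replicate 1 there were 4 chaperone members, 1 of RNA polymerase II with Mediator, 0 of actin, tubulin and muscle, 3 of the vacuolar ATPase and 1 nuclear hormone receptor. Without replicate 2 there were 3 of the vacuolar ATPase, and the other 4 lists kept counts within 1.5 times. No collagen gene of 175 (upper limit 2.09%) and no histone gene of 82 (upper limit 4.40%) was a member. The share over all protein-coding genes, 1.37%, lies below both limits, so these counts do not set the 2 lists apart from it. Most members, 203 of 274, were in none of the lists.

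**Figure D4:**
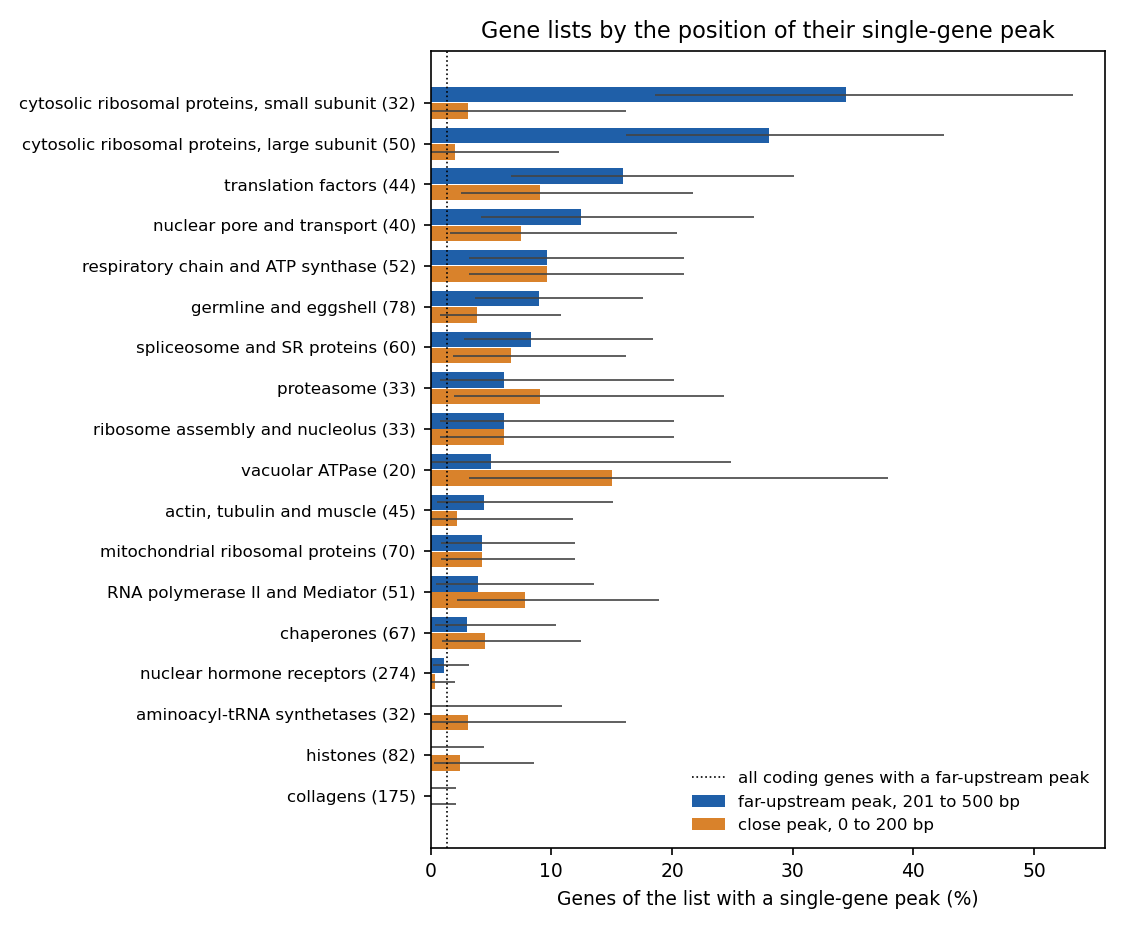
Percentage of the genes of each list (number of genes in brackets) with a far-upstream (blue) or close (orange) single-gene peak. Lines are exact 95% intervals and the dotted line is the share of all protein-coding genes with a far-upstream peak, 1.37%. The small and large subunit ribosomal protein lists lie at 34.4% and 28.0% for far-upstream peaks, against 3.12% and 2.00% for close peaks.

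Most members lay in DNA between protein-coding genes. The summit was intergenic in 253, intronic in 11, in a noncoding exon in 9 and in a coding exon in 1, that of C47E8.11, whose summit fell in the chaperone gene hsp-90. The nearest coding gene upstream pointed the same way in 150 (54.7%, 48.6 to 60.7%), the opposite way in 111 and overlapped the start in 13. Over all coding genes, 50.9% had a neighbour pointing the same way. The median gap to that neighbour was 941.5 bp (789 to 1229), against 936 bp over all coding genes and 780.5 bp (666 to 965) at close peaks. The far band cannot be reached where another start lies too near, so the gap is partly set by the rule.

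The members' annotated starts lay a median of 9.0 bp ahead of the first coding base (7.0 to 13), against 15.5 bp (13 to 22) for genes at close peaks. The start lay ahead of the first coding base, so that a 5′ untranslated stretch was annotated, in 90.9% of members, 94.0% of close peaks and 76.5% of all coding genes. With RefSeq gene starts in place of those of Ensembl, 271 of the 274 summits stayed in the far band.

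Noncoding genes of other classes, which the rule did not exclude, lay near more members than close peaks. A noncoding gene or pseudogene was annotated within 250 bp of the summit in 41 members (15%, 11 to 19.7%) and 13 close peaks (4.58%, 2.46 to 7.70%), and in 10.5% of places 297 bp upstream of coding starts without a peak. At the median distance of the close peaks, 9.09% of starts without a peak had one, so the close peaks lay below their own background. The annotation gives the nearest one as a piRNA in 4, a pseudogene in 2, a lincRNA in 2 and only as ncRNA in 33. The summit lay inside such an ncRNA gene in 23 members (8.39%, 5.4 to 12.3%), among them icd-1, rps-1, rpl-7 and nucl-1, against 6 close peaks (2.11%, 0.779 to 4.54%) and, of the places without a peak, 1.49% at the members' distance and 1.72% at that of the close peaks. No test was made of these differences.

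The members were spread over all 6 nuclear chromosomes, with 47 on I, 44 on II, 54 on III, 49 on IV, 45 on V and 35 on X. Chromosome V held 16.4% of the members (12.2 to 21.4%) and 25% of the coding genes, and chromosome III 19.7% (15.2 to 24.9%) and 13.2%. Of the close peaks, 15.5% (11.5 to 20.2%) lay on V and 17.6% (13.4 to 22.5%) on III, so these shares are not particular to the members.

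The DNA under the members' summits was rich in G and C. The windows reaching 50 bp to each side of the summit had a median GC content of 45.5% (44.6 to 46.5%), against 34.7% (33.7 to 35.6%) in control windows of the same length 500 bp further upstream, and GC was higher at the summit in 214 of the 274 pairs. The medians were 44.6% at close peaks and 33.7% at the same distance from coding starts without a peak, and the nuclear genome as a whole has 35.4%. The GC-rich stretch lay where the summits lay. By distance from the start, the members reached 40.4% between −275 and −251 bp and the genes at close peaks 41.6% between −150 and −126 bp, whereas the starts without a peak had 34.3% and 34.2% there. A median of 21.8% of the bases in the members' windows (19.8 to 23.8%) were marked as repeats in the reference. At close peaks the median was 24.8% (21.8 to 28.7%). Of all bases of the nuclear genome 35.7% are so marked, but this is a pooled share and not a median over windows. Matched windows without a peak were not measured for repeats.

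**Figure D5:**
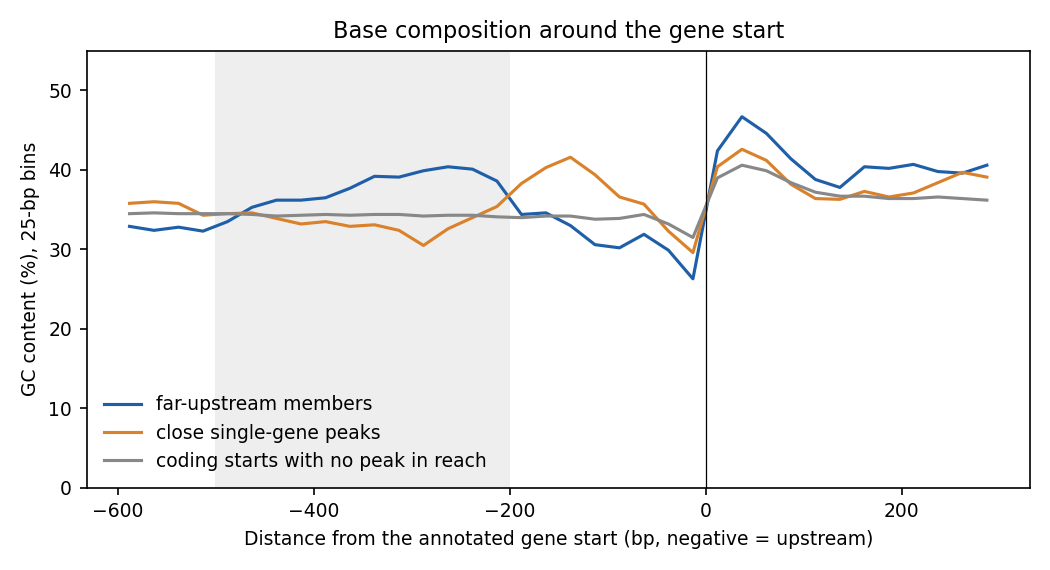
GC content in 25-bp bins by distance from the annotated gene start, for genes of the 274 far-upstream members (blue), the 284 close single-gene peaks (orange) and coding starts with no peak in reach (grey). The members' curve has its upstream maximum, 40.4%, inside the shaded far band, and the close peaks' curve, 41.6%, nearer the start.

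Every sequence of 6 bases, with both strands read as 1, was compared between the summit window and the control window of the same member by an exact two-sided McNemar test, with Benjamini-Hochberg adjustment over all of them. At an adjusted p of 0.05, 117 (5.62%) were in more summit windows than control windows and 46 (2.21%) in fewer. With the strongest peaks of replicate 2 alone, leaving out replicate 1, these counts were 65 and 10, and with replicate 1 alone 110 and 50. The dinucleotide CG was in 87 of the 117 and in none of the 46. Among all the 6-mers compared, of which the 117 are 5.62%, CG was in 604. At the close peaks 126 (6.06%) were in more and 45 (2.16%) in fewer. Most of these 126 and none of these 45 held CG, so this trait is not particular to the members. Of those in more windows, 61 were called at both, which is 52.1% of the members' and 48.4% of the close peaks' calls. Of those in fewer windows, 8 were called at both, which is 17.4% and 17.8%. Overlapping 6-mers share their occurrences, so these counts are not counts of separate signals, and GC content differed between the windows. Of the members' 274 control windows, 62 were centred in a coding exon, against 1 of their summits. The part of GC content and of coding exons in the calls was not tested.

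ACGCGC had the smallest p-value. It was in 57 summit windows and 4 control windows (adjusted exact McNemar p = 4.77e-11), and in 20.8% of members' windows (16.2 to 26.1%), the same 20.8% of close peaks' windows, and 1.72% of windows at starts without a peak. GACGCA was in 45 and 5 windows (adjusted exact p = 1.57e-06). GAGCGC was in 37 and 3, CGAGAC in 49 and 7, and AGTGCG in 34 and 3 (adjusted exact p = 3.29e-06 each). AGTGCG was in 12.4% of members' windows, and in 6.91% without replicate 1. GAGCGC was in 13.5% of members' windows (9.69 to 18.1%) and 20.4% of close peaks' windows (15.9 to 25.6%), and CGAGAC in 17.9% (13.5 to 22.9%) and 11.6% (8.13 to 15.9%), differences that were not tested.

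At least 1 of the 6 marked sequences was in 154 of the 274 members' windows (56.2%, 50.1 to 62.2%). The share was 54.9% (48.9 to 60.8%) at close peaks, 44.4% at all nuclear peaks, 7.30% in the members' control windows and 9.03% of windows at the same distance from starts without a peak. The marked sequences were picked on the members' windows, so that choice can raise the first share.

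Among motifs taken from a list of 10, CTGCGTCT was in 8.39% of members' windows (5.4 to 12.3%), 5.63% of close peaks' windows and 0.810% of windows at starts without a peak. The GAGA repeat GAGAGA was in 17.2% of members' windows (12.9 to 22.1%), against 8.03% of their control windows and 5.91% at starts without a peak. It was also in 13.7% of close peaks' windows (9.95 to 18.3%) and in 16.2% at all nuclear peaks. CCAAT, a common promoter element of animals, was in 15.3% of members' windows (11.3 to 20.1%) and 16.2% of close peaks' windows. Its share was 20.1% in the members' control windows and 19.2% at starts without a peak. CACGTG, the letters of an E-box, was in 4.38% of members' windows (2.28 to 7.53%), and in 2.55% without replicate 1. Its share was 3.52% at close peaks, 3.65% in the members' control windows and 1.64% at starts without a peak. GTTCGANTC, part of the inner promoter of tRNA genes, was in 1 member window, against 5.11% of all nuclear peaks, and the rule had kept tRNA genes away. TTTCAG, which holds the letters that end worm introns, was in 7.66% of members' windows (4.81 to 11.5%) and 7.75% of close peaks' windows. It was in 23% of the members' control windows and 18.3% of windows at starts without a peak. Of the 274 control windows, 62 were centred in a coding exon, and whether this bears on the difference was not tested. All were searched on both strands, and a match is only a match of letters.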

How the data were processed

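The members, the gene lists, the motifs and the tests were chosen with earlier results of these data known. ChIP-seq peak lists in ce11 were used. Per the notes deposited with each sample, the authors called regions on each replicate and on the pooled reads against a control, and deposited 30000 regions per replicate list, together with the peaks that passed IDR. Not given in the sources used here are the kind of control, the aligner, the caller and the IDR cutoff. The deposited signal per peak is the authors' own value and was ranked and summarized only within a list. Where replicate signals are given side by side, each is on the scale of its own list. The deposited −log10 q-value ranked peaks in 1 alternative. Read totals are not in these lists, so depth is unknown, and intervals (exact binomial for shares, order statistics for medians) cover counting error over peaks or genes only.

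Summits were the deposited offset from the peak start, which for most members is the middle of a peak of fixed width (356 bp). Gene starts were the 5′ ends of protein-coding genes in Ensembl release 115, and genome sequence and product names came from RefSeq (WBcel235). A member was matched to the replicate region of highest signal that overlapped it by at least 1 bp. Of the gene lists, which go by name patterns, some patterns were corrected after their members were seen: clone names caught by the histone pattern were dropped, eftu-2 was moved from the translation factors to the spliceosome, and clu-1, eif-4A3, some ddx genes and T10E10.6 were removed. Named genes are the 15 members of highest signal, those at the edges, the 4 strongest of each list, and the 5 6-mers of smallest p; other genes were named after their values were seen. The 6-mer test was tried on simulated windows, with both sides shuffled from the same control windows and known 6-mers put into 1 side. The 2 sides therefore started with the same base composition, unlike the real windows (median GC 45.5% and 34.7%). The simulation thus cannot tell how the difference in GC bears on the calls. Sequence windows reached 50 bp to each side of the summit. Analyses used Python 3.11.15, NumPy 2.4.6, pandas 2.3.3 and SciPy 1.17.1. Alternatives covered the peak position, band edges, RNA gene distance, start annotation, peak set, single replicates, window size, control window and matching rule.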

Additional observations from a re-analysis of the deposited data

How the results depend on the processing

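Samples could not be paired between groups, because there was 1 group and no groups were compared. The exact McNemar test paired windows instead, the summit window with the control window of the same member. Under the alternatives for the members, their number ran from 202 to 376 except with peaks above the median nuclear signal, where it was 128. With the strongest peaks of a single replicate in place of the IDR peaks, it was 275 and 281. The median position moved with the edges, to −260 bp with the near edge 50 bp nearer the start, −328 bp with it 50 bp further away and −334 bp with a reach of 1000 bp. With the same near edges, the share of members with both replicate summits in the band was 89.1% and 74.8%. Cytosolic ribosomal protein genes numbered 20 to 27 among the members under every alternative, and 22 and 23 from single replicates. Those with close peaks numbered 1 to 7, with 7 when the near edge lay 50 bp further away.

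The counts of 6-mers moved with the edges, the peak set, the window and the control. With the near edge 50 bp nearer, 199 were in more and 112 in fewer windows. With it 50 bp further away they were 56 and 22, with peaks above the median signal 37 and 12, and with windows of 51 bp 37 and 20. From single replicates, 65 and 110 were in more windows and 10 and 50 in fewer. With the control window 500 bp to the left, 26 were in fewer. With the control window 100 bp upstream of the same start, an alternative chosen after seeing the data, 95 were in fewer and 147 in more. The 5 named 6-mers passed the threshold under all 17 settings for which 6-mers were recomputed. They were picked for the smallest p-values in the members' windows, and the settings reuse many of the same peaks, so this is no independent support. Restricting the members to the 229 with both replicate summits in the band, also chosen after seeing the data, gave 79 and 37.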

Other observations

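Occurrences of the named 6-mers in the members were most frequent near the summit and lay on both strands. Within 250 bp of the members' summits, ACGCGC had 64 occurrences centred within 50 bp of the summit, 34 on the gene's strand and 30 on the other, and 4 and 2 in the outermost 100 bp on either side. CGAGAC had 58 of 102 there, 23 on the gene's strand and 35 on the other. CTGCGTCT had 24 of 39, with 12 on each strand. The 6-mers were picked for being frequent within 50 bp of these same summits, so their frequency there restates that choice.

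The median signal was higher in members with each named 6-mer than in those without it, and the same held at close peaks. Members with CGAGAC in the window had a median signal of 65.7 (49 members), against 49.3 in the 225 without. With GACGCA it was 62.6 (45 members), against 49.7 in the 229 without. With ACGCGC it was 53.5 (57 members), against 50.5 in the 217 without. With AGTGCG it was 54.5 (34 members), against 50.3 in the 240 without, and with GAGCGC 51.8 (37 members), against 51.1 in the 237 without. At close peaks it was 63.0 with CGAGAC against 49.2 without, and 60.5 with GAGCGC against 48.8 without. The higher signal is thus not particular to the members. The members' values describe peaks that were also used to pick the 6-mers, and no test was made.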
